A study of Mus musculus with 6 samples.

Results

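The 10 genes described here belong to the Slc4 and Slc26 families of anion transporters and were taken by symbol. No measured value enters that rule, but the symbols were listed with earlier results of these data known. They are Slc4a2, Slc4a3, Slc4a4, Slc4a7, Slc4a11, Slc26a1, Slc26a2, Slc26a3, Slc26a6 and Slc26a11, and each was found as 1 row among the 52550 genes of the table. RNA was sequenced from GFP-positive cells of Sox9-GFP embryos of the CD-1 mouse strain, harvested at E16.5 or E18.5, giving 3 libraries (replicates A, B and C) for each stage. Both stages carried the same transgene and received no treatment. The labels give the stages as embryonic days 16 and 18, and the study's methods as E16.5 and E18.5, which are used here. Each library came from a pool of 15 livers that was dissociated, depleted of cells carrying surface markers of blood lineages and then sorted for GFP, which labels cells in which the SOX9 transcription factor is made. The replicate letters are not tied in the labels to separate days or litters, so the p-values measure only the spread between these libraries, which may in part be technical.

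Members of both families move anions across membranes, most of them by exchanging 1 anion for another. In the Slc4 family, the anion exchangers swap chloride for bicarbonate and the sodium bicarbonate cotransporters carry bicarbonate together with sodium. Members of the Slc26 family carry sulfate, oxalate, chloride or bicarbonate. In bile ducts, bicarbonate enters the duct cell with sodium and leaves it across the apical membrane in exchange for chloride, which makes bile alkaline and draws water after it. In hepatocytes, sulfate transport serves the sulfation of hormones, drugs and bile acids. Fluid pumped into the future duct was among the mechanisms considered for opening a lumen, which is why transport genes were measured.

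The labelled cell type was checked against marker genes. The summed level of 10 cholangiocyte markers (among them Krt7, Krt19, Spp1, Epcam and Sox9, the gene of the sort) lay between 748 and 2511 TPM in the E16.5 libraries and between 8111 and 13935 TPM in the E18.5 libraries, where TPM is a transcript level corrected for the length of the gene and expressed relative to the sum of its library. The summed level of 12 hepatoblast markers (among them Alb, Afp and Ttr) was far higher at both stages, 178777 to 226860 TPM in E16.5 libraries and 41697 to 102929 TPM in E18.5 libraries. Megakaryocyte markers were at 3270 to 9482 TPM and then at 86.2 to 752 TPM. The cells are therefore called SOX9-GFP+ cells here and not cholangiocytes. In bulk RNA of this kind, fewer cells of a type and less RNA per cell cannot be told apart. Reads recovered from the TPM came to between 23193537 and 26206374 per E16.5 library and between 13093937 and 22643868 per E18.5 library.

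The members lie on 8 chromosomes of the mouse genome (build GRCm38, GENCODE vM21 annotation), and only the genes on chromosome 5 share a chromosome. Slc4a2 spans 24423837 to 24440950 of chromosome 5 on the forward strand (8322 bp of exon sequence), and Slc4a4 spans 88886818 to 89239653 on the same strand (10815 bp). Slc26a1 spans 108669878 to 108675569 on the reverse strand (4050 bp). Slc4a3 lies on chromosome 1 from 75546266 to 75562172 (8599 bp), Slc4a7 on chromosome 14 from 14702279 to 14799940 (15205 bp), and Slc4a11 on chromosome 2 from 130684113 to 130697519 (4998 bp). Slc26a6 lies on chromosome 9 from 108853283 to 108913049 (5411 bp), Slc26a11 on chromosome 11 from 119355557 to 119381079 (3610 bp), and Slc26a3 on chromosome 12 from 31390871 to 31473917 (6369 bp). Slc26a2 has 12370 bp of exon sequence. Of these genes, Slc4a2 shares 13.7% of its exon sequence with Fastk on the opposite strand, and Slc26a1 shares 3.48% with Idua on the opposite strand. Although the kit kept the strand of the RNA, whether the counting used it is not given in the sources used here, so reads in the shared stretches are uncertain.

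Because Slc4a2, Slc4a4 and Slc26a1 stand for an apical exchanger, a bicarbonate loader and a sulfate transporter, the 250 bases before 1 annotated RefSeq start of each are shown (GRCm38.p6), each chosen to touch no annotated exon. Each lies upstream of an internal start, within an intron of at least 1 other transcript of its gene. They are written 5′ to 3′ on the strand of the gene, and capitals mark a match to AACAAT, the core bound by SOX factors, here read on the opposite strand.
Slc4a2, chr5:24424982-24425231, forward strand: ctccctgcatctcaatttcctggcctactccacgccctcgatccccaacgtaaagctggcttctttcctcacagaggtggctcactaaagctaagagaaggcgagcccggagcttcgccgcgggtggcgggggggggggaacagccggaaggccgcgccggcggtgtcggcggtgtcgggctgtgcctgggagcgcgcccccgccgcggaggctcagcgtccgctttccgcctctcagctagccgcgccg
Slc4a4, chr5:89027716-89027965, forward strand: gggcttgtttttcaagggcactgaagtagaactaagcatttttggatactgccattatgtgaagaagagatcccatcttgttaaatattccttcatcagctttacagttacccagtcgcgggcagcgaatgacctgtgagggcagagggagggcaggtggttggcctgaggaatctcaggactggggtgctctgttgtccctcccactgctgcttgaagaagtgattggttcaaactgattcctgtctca
Slc26a1, chr5:108674797-108675046, reverse strand: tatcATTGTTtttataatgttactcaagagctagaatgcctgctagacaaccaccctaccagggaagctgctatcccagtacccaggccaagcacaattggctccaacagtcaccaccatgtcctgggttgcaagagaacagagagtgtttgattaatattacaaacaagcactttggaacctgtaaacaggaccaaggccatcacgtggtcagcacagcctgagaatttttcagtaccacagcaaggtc
The Slc4a2 window held 28 CpG dinucleotides, more than 92.4% of the 32851 windows of the same length in the RefSeq table, whose median was 6. The Slc4a4 window held 3 and the Slc26a1 window 1. Both strands were searched for AACAAT (SOX), GTTAAT (HNF1), ATTGAT (ONECUT), CAAAGTCCA (HNF4-like) and GGGCGG (GC box), which occur in 9.42%, 6.43%, 6.72%, 0.384% and 32.7% of all windows, and the marked match was the only one in the 3 windows shown. A match describes letters and not a bound site. Of the 10 members, 7 had a window in the table.

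**Figure D1:**
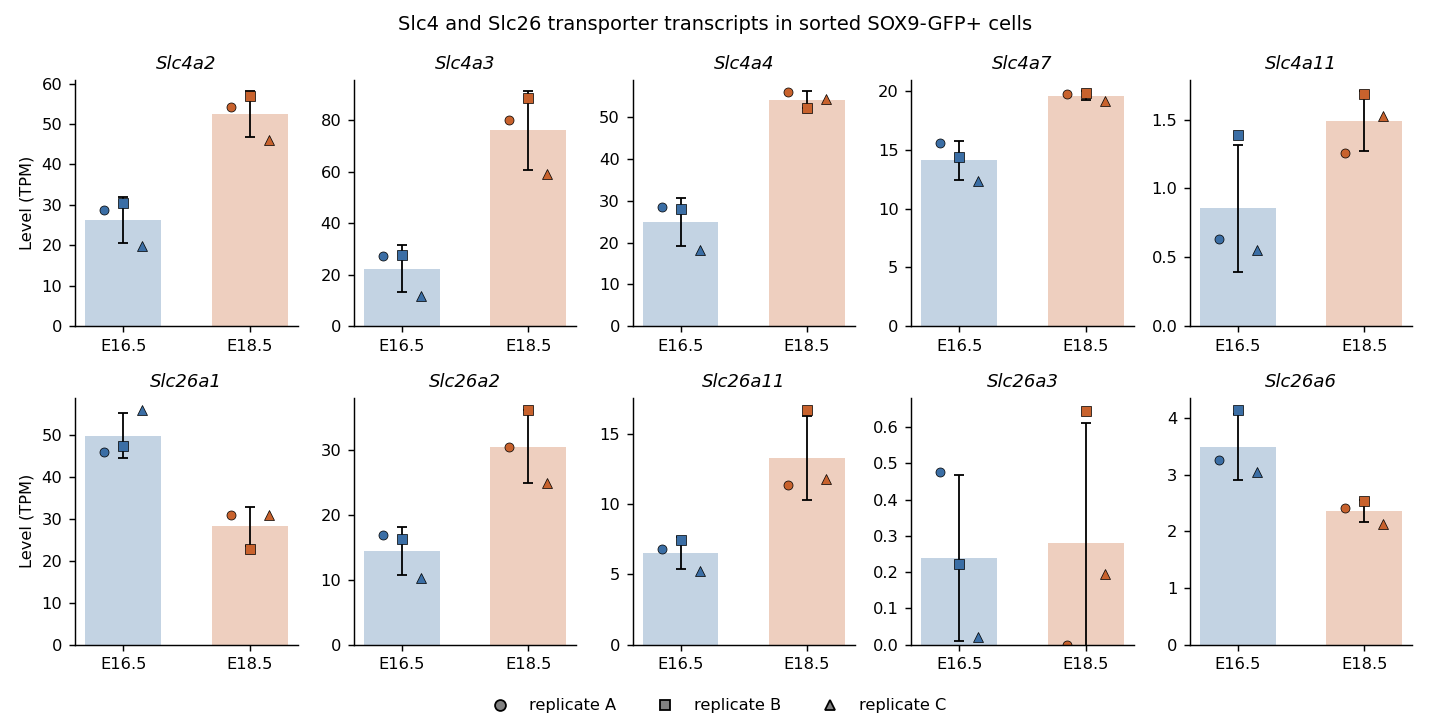
TPM of each of the 10 genes in every library (points, with the marker shape giving the replicate), with the mean (bar) and the SD (error bar, n = 3 per stage; drawn from 0 up), and with a separate vertical axis for each gene. The libraries of the stages do not overlap for Slc4a2, Slc4a3, Slc4a4, Slc4a7, Slc26a1, Slc26a2, Slc26a11 and Slc26a6, and overlap for Slc4a11 and Slc26a3.

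From E16.5 to E18.5, the Slc4 chloride-bicarbonate exchanger genes Slc4a2 and Slc4a3, the cotransporter genes Slc4a4 and Slc4a7 and the sulfate transporter genes Slc26a2 and Slc26a11 rose, while Slc26a1 fell. The apical exchanger genes of the Slc26 family, Slc26a6 and Slc26a3, were not called. The stages were compared with limma on log2(TPM + 1) over the 22452 genes whose mean reached 1 TPM, and a gene was called where its Benjamini-Hochberg adjusted p over all of them was under 0.05. Adding 1 before the logarithm makes the fold changes of genes with few TPM smaller than their ratios. Of the 10 members, 9 were tested. Of these, 6 were called higher at E18.5, against 26.0% of all genes tested, and 1 was called lower, against 5.22%. In either direction 7 of 9 were called, against 31.2%, and 8 of 9 had stages that did not overlap, against 53.3%. The median log2 fold change was 0.92 over the tested members and 0.42 over all genes. Without replicate A of E18.5 the count of called members was 1 (Slc4a4), and without replicate B of E18.5 it was 4. Over all genes, those fits called 1472 of 22410 and 2917 of 22200.

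Slc4a2 encodes AE2, the exchanger known for releasing bicarbonate across the apical membrane of bile duct cells. Its level was 28.6, 30.5 and 19.8 TPM in the E16.5 replicates A, B and C and 54.3, 56.9 and 46.1 TPM in those of E18.5. Each E18.5 library was above each E16.5 library, and replicate C was the lowest of its stage both times. The mean rose 1.99-fold, from 26.3 ± 5.69 to 52.4 ± 5.62 TPM (SD, n = 3; log2 fold change 0.99, standard error (SE) 0.19, limma adjusted p = 0.0142). Fastk, with which it shares exon sequence, did not follow it and had 23.5 ± 1.05 and 24.3 ± 1.32 TPM (SD, n = 3).

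Slc4a3 encodes AE3, a related exchanger best known from heart and brain. It had 27.4, 27.7 and 11.8 TPM in the E16.5 replicates A, B and C and 80.1, 88.8 and 59.2 TPM in those of E18.5. The lowest E18.5 library was thus more than 2-fold above the highest E16.5 library. The mean rose 3.41-fold, from 22.3 ± 9.11 to 76.0 ± 15.2 TPM (SD, n = 3; log2 fold change 1.80, SE 0.33, limma adjusted p = 0.0139), the largest change of any member tested. At E18.5 Slc4a3 was higher than 91.2% of the protein-coding genes, against 73.5% at E16.5.

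Within the pair of Slc4 chloride-bicarbonate exchangers, the balance moved from Slc4a2 to Slc4a3. Slc4a3 made up 48.9%, 47.6% and 37.2% of the summed TPM of both in the E16.5 libraries and 59.6%, 60.9% and 56.2% in the E18.5 libraries. Slc4a2 was the higher of the pair in every E16.5 library and Slc4a3 in every E18.5 library. The mean share of Slc4a3 was 44.6 ± 6.39% and then 58.9 ± 2.43% (SD, n = 3; two-sided exact permutation p = 0.1, the smallest that 3 against 3 can give). A ratio within a library does not depend on how the libraries are scaled to each other.

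Slc4a4 encodes NBCe1, the electrogenic cotransporter that loads epithelial cells with bicarbonate. Replicates A, B and C had 28.4, 28.0 and 18.3 TPM in the E16.5 libraries and 56.0, 52.1 and 54.5 TPM in the E18.5 libraries. The E18.5 libraries lay close together and all above E16.5, where replicate C was again the lowest. The mean rose 2.18-fold, from 24.9 ± 5.74 to 54.2 ± 1.97 TPM (SD, n = 3; log2 fold change 1.12, SE 0.18, limma adjusted p = 0.0113). Slc4a4 was the only member past the threshold in all 15 alternative fits.

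Slc4a2 and Slc4a4, the exit and the entry step for bicarbonate, were at similar levels in each library. The log2 ratio of Slc4a2 to Slc4a4 was 0.08 ± 0.06 in the E16.5 libraries and -0.05 ± 0.18 in the E18.5 libraries (SD, n = 3). The ratios of the stages overlapped, and the difference of -0.14 was within the spread between libraries (two-sided exact permutation p = 0.4).

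Slc4a7 encodes NBCn1, the electroneutral sodium bicarbonate cotransporter. It had 15.6, 14.4 and 12.3 TPM in the E16.5 libraries and 19.8, 19.9 and 19.2 TPM in the E18.5 libraries. The stages did not overlap, but the gap was the narrowest of the members called. The mean rose 1.39-fold, from 14.1 ± 1.64 to 19.6 ± 0.362 TPM (SD, n = 3; log2 fold change 0.46, SE 0.14, limma adjusted p = 0.0479). That value is close to the median of all genes, 0.42, and with median-of-ratios scaling, which moves that median to 0.01, the change of Slc4a7 was 0.02 and not past the threshold (limma adjusted p between 0.0355 and 0.932 over 15 alternatives, of which 3 called it).

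Slc4a11, a more distant family member known from corneal endothelium, was near the lower limit of the test. Its 22 to 54 reads per library gave 0.630, 1.39 and 0.552 TPM in the E16.5 libraries and 1.26, 1.68 and 1.53 TPM in the E18.5 libraries. Replicate B of E16.5 lay among the E18.5 libraries. The log2 fold change was 0.45 with a 95% interval of -0.27 to 1.17 (limma adjusted p = 0.280), so neither a fall nor a 2-fold rise is outside the interval.

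Slc26a1 encodes SAT-1, a sulfate and oxalate exchanger of hepatocytes and kidney tubules, and was the only member called lower at E18.5. Its level was 46.0, 47.5 and 56.0 TPM in the E16.5 replicates A, B and C and 30.9, 22.8 and 31.0 TPM in those of E18.5. Every E18.5 library was below every E16.5 library. The mean at E16.5 was 1.77-fold that at E18.5, 49.8 ± 5.41 against 28.2 ± 4.71 TPM (SD, n = 3; log2 fold change -0.81, SE 0.16, limma adjusted p = 0.0157). Idua, which overlaps it on the opposite strand, moved the other way, from 10.9 to 20.4 TPM (log2 fold change 0.84, limma adjusted p = 0.0253).

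Slc26a2 encodes a sulfate transporter that is needed for the sulfation of proteoglycans, best known in cartilage. It had 16.8, 16.3 and 10.2 TPM in the E16.5 libraries and 30.5, 36.1 and 24.8 TPM in the E18.5 libraries. All E18.5 libraries were above all E16.5 libraries, with a 2.11-fold rise of the mean from 14.4 ± 3.67 to 30.5 ± 5.66 TPM (SD, n = 3; log2 fold change 1.04, SE 0.23, limma adjusted p = 0.0195).

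Slc26a11 encodes a further sulfate transporter of the family. It had 6.85, 7.49 and 5.24 TPM in the E16.5 libraries and 11.4, 16.7 and 11.8 TPM in the E18.5 libraries. Replicate B was the highest of both stages, and the stages did not overlap. The mean rose 2.04-fold, from 6.53 ± 1.16 to 13.3 ± 2.98 TPM (SD, n = 3; log2 fold change 0.92, SE 0.22, limma adjusted p = 0.0234). With median-of-ratios scaling the change was 0.50 and not past the threshold (limma adjusted p between 0.0191 and 0.0943 over 15 alternatives, of which 9 called it).

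The sulfate transporters therefore changed in both directions. Slc26a1 made up 66.0%, 66.7% and 78.4% of the summed TPM of Slc26a1, Slc26a2 and Slc26a11 in the E16.5 libraries and 42.5%, 30.1% and 45.8% in the E18.5 libraries. Its mean share was 70.4 ± 6.96% and then 39.5 ± 8.28% (SD, n = 3; two-sided exact permutation p = 0.1, the smallest possible). The share at E18.5 was lowest in replicate B, which also had the lowest Slc26a1 and the highest Slc26a2 and Slc26a11 of its stage.

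Slc26a6 encodes PAT-1, an apical exchanger of chloride, oxalate and bicarbonate in pancreas, gut and kidney. Its level was 3.25, 4.15 and 3.06 TPM in the E16.5 libraries and 2.40, 2.53 and 2.14 TPM in the E18.5 libraries. The stages did not overlap, but the log2 fold change of -0.41 (95% interval -0.95 to 0.13) did not pass the threshold (limma adjusted p = 0.195). Relative to the general shift of all genes it was, with a log2 fold change of -0.75 under median-of-ratios scaling (limma adjusted p = 0.0466) and -0.83 under quantile normalization (limma adjusted p = 0.0439).

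Slc26a3 encodes DRA, the chloride-bicarbonate exchanger of the intestinal surface, and was the only member below the filter. It had 26, 11 and 1 reads in the E16.5 libraries and 0, 21 and 5 reads in the E18.5 libraries, or 0.476, 0.221 and 0.0197 TPM and then 0, 0.645 and 0.193 TPM. In replicate A of E18.5, 3 reads were worth 0.0689 TPM. Its 0 reads had a 95% exact (Clopper-Pearson) interval with an upper limit of 0.0847 TPM. The value in replicate B of E18.5 had a 95% exact (Clopper-Pearson) interval of 0.399 to 0.986 TPM, for counting error only, which lies above that limit. High and low libraries occurred at both stages, and no stage difference was detectable at this depth. A list of 6 intestinal markers was low too. Its sums were 36.8, 18.0 and 10.3 TPM in the E16.5 libraries and 7.70, 15.5 and 13.5 TPM in the E18.5 libraries. Its defining genes Cdx1 and Cdx2 were at 0 in some libraries. Cdx1 had 1.87, 0.952 and 0 TPM in the E16.5 libraries and 0, 0.447 and 0 TPM in the E18.5 libraries. It was thus above 0 only in the libraries with the most Slc26a3 reads, replicates A and B of E16.5 and B of E18.5. Cdx2, Cdh17 and Muc2 of the list were each higher in these libraries than in any other. Fabp2 and Guca2a of the list were not. The part of other cells in the Slc26a3 reads was not tested.

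**Figure D2:**
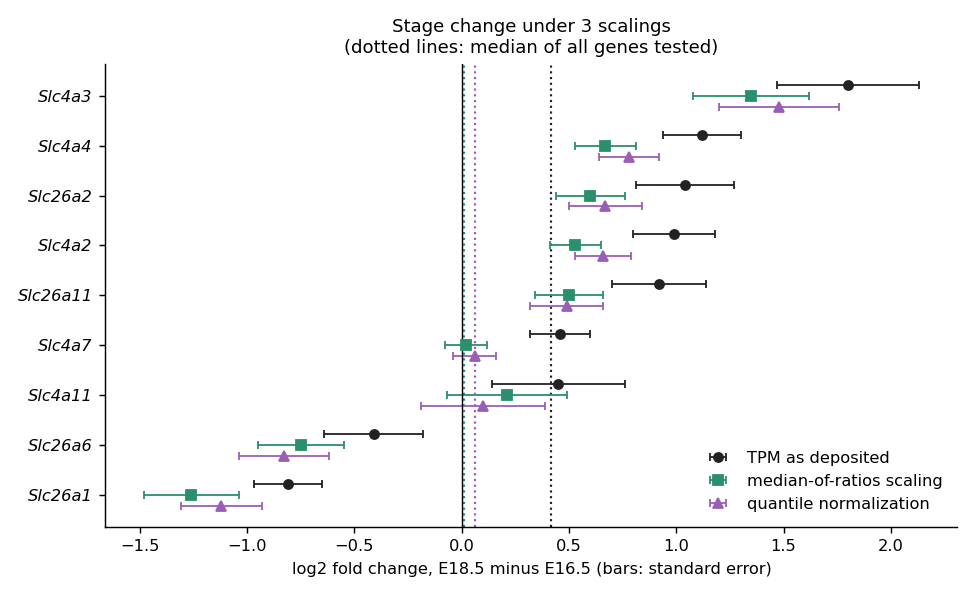
Log2 fold change (E18.5 minus E16.5) of the 9 tested genes on the horizontal axis, with standard errors, for the TPM as deposited and for 2 other scalings between libraries; dotted lines give the median of all genes tested under each. Slc4a3 lies furthest to the right and Slc26a1 furthest to the left of the black line at 0 for the TPM as deposited, and Slc4a7 lies on the median line in each.

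The scaling between libraries moved the members as a group. With median-of-ratios scaling 4 members were called higher (Slc4a2, Slc4a3, Slc4a4 and Slc26a2) and 2 lower (Slc26a1 and Slc26a6), and no tested member changed sign. Over all 22452 genes tested, this scaling called 1447 higher and 2348 lower. The same scaling turned the split of calls over all genes from 83.3% to 38.1% higher at E18.5. Under it the log2 fold change was 1.35 for Slc4a3, 0.67 for Slc4a4, 0.60 for Slc26a2, 0.53 for Slc4a2 and -1.26 for Slc26a1, all past the threshold.

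The order of the members by level also differed between the stages. At E16.5 Slc26a1 was the highest, above every other member in every library. Slc4a2, Slc4a4, Slc4a3, Slc26a2 and Slc4a7 followed in order of their means, but each neighbouring pair overlapped between libraries. Slc26a11, Slc26a6, Slc4a11 and Slc26a3 came below them, each separated from the one above. At E18.5 Slc4a3 was the highest, followed by Slc4a4 and Slc4a2, whose libraries overlapped, then by Slc26a2 and Slc26a1, whose libraries overlapped, and then by Slc4a7. The 4 lowest members kept their order.

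**Figure D3:**
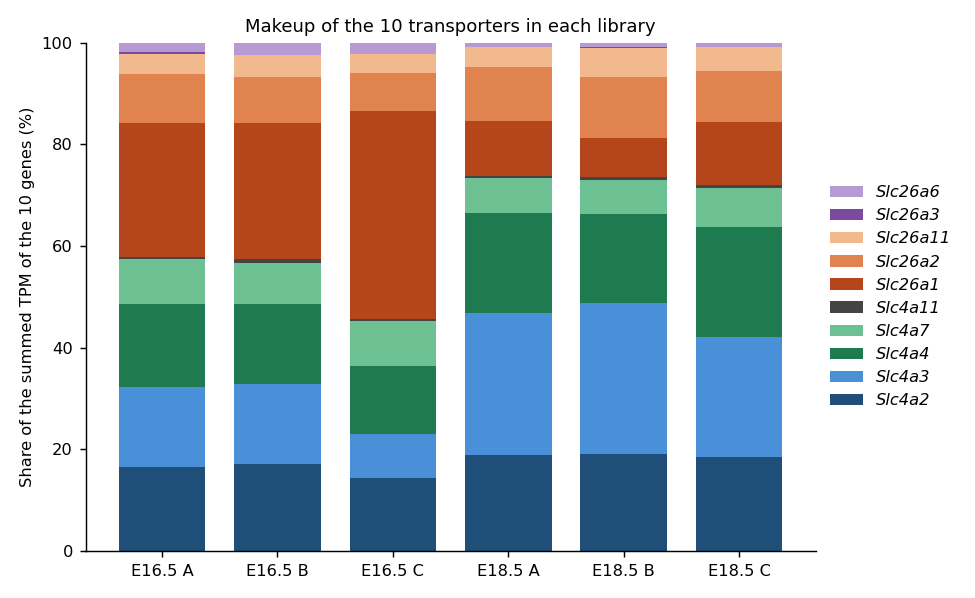
Share of each gene in the summed TPM of the 10 genes (vertical axis, percent) in each of the 6 libraries. The blue pair, Slc4a2 and Slc4a3, takes 23.0% to 32.8% in E16.5 libraries and 42.1% to 48.9% in E18.5 libraries, and Slc26a1 (dark red) takes 26.4% to 40.8% and then 7.65% to 12.4%.

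Summed over the 10 genes, the E16.5 libraries held 163 ± 22.3 TPM and the E18.5 libraries 278 ± 24.9 TPM (SD, n = 3). The Slc4 exchangers Slc4a2 and Slc4a3 together made up 29.3 ± 5.47% of that sum in the earlier libraries and 45.9 ± 3.50% in the later ones. The Slc26 members together made up 46.4 ± 6.88% and then 26.9 ± 0.921%. For both groups the stages did not overlap (two-sided exact permutation p = 0.1, the smallest possible, and 0.2 after adjustment over 4 shares). The cotransporters Slc4a4 and Slc4a7 made up 22.3% to 25.3% and then 24.1% to 29.4%, and the stages overlapped (exact permutation p = 0.2, 0.267 adjusted). Slc4a11 made up 0.515% and 0.538% (exact permutation p = 0.9).

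Markers of cell types moved with these genes. Of the 10 cholangiocyte markers 9 were called higher at E18.5, with a median log2 fold change of 1.63. Of the 12 hepatoblast markers 7 were called lower, with a median of -1.24. Over all genes tested, 26.0% were called higher and 5.22% lower. Some other cell types moved too. Megakaryocyte markers were lower in 8 of 8 (median -4.39) and pancreatic acinar markers in 4 of 7 tested (median -2.67). Of 8 mesenchyme markers 2 were called higher (median 1.08), a count near the share over all genes, with sums of 108 to 241 and then 241 to 683 TPM. Of 7 endothelium markers and of 7 leukocyte markers, 1 each was called higher. Of the intestinal markers 1 of 5 tested was called lower, and of 10 erythroid markers 0 were called. Replicate C of E16.5 had the lowest summed cholangiocyte markers of all libraries (748 TPM) and the highest summed hepatoblast markers (226860 TPM). The same library had the lowest level of Slc4a2, Slc4a3, Slc4a4, Slc4a7, Slc4a11, Slc26a2 and Slc26a11 and the highest level of Slc26a1. The part of the cell mixture in the changes of the members was not tested.

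**Figure D4:**
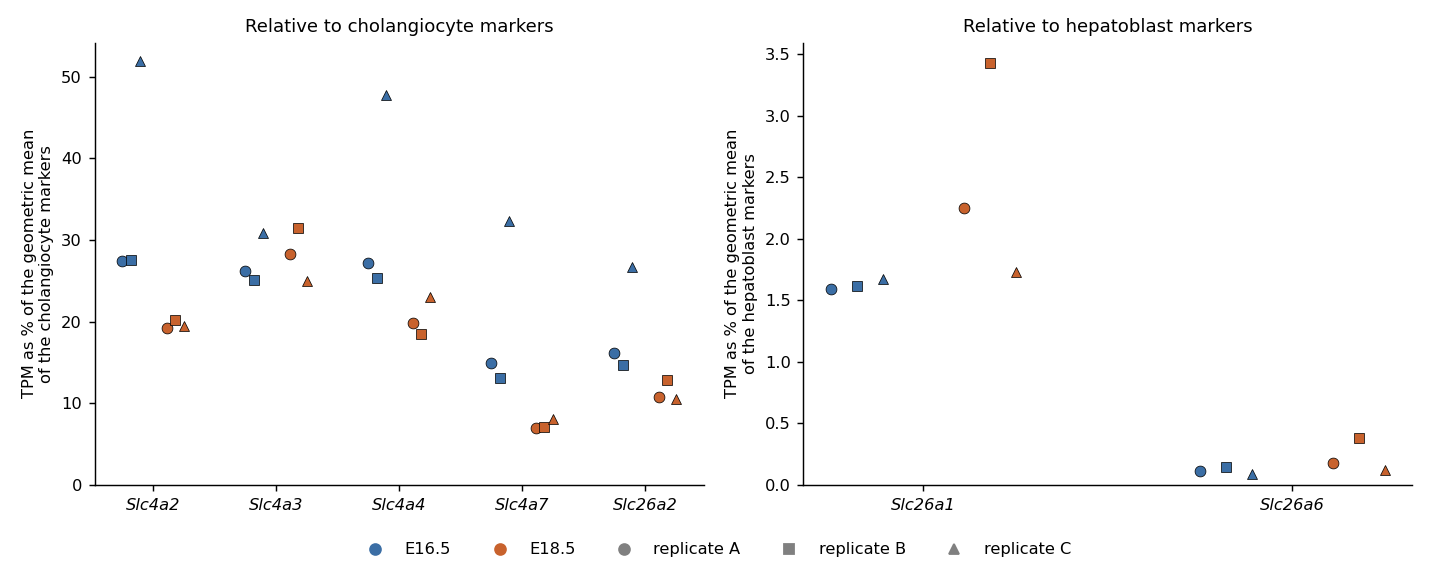
TPM of 7 genes as a percentage of the geometric mean of the cholangiocyte markers (left) or hepatoblast markers (right) in the same library, with colour for the stage and marker shape for the replicate. In the left panel Slc4a3 stays between 25.0% and 31.5% in all 6 libraries, whereas Slc4a2, Slc4a4, Slc4a7 and Slc26a2 are lower at E18.5. In the right panel Slc26a1 is higher at E18.5.

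The members were therefore also set against these markers within each library, a description chosen after their values had been seen. Relative to the geometric mean of the cholangiocyte markers, Slc4a3 was at 26.2%, 25.1% and 30.8% in the E16.5 libraries and at 28.3%, 31.5% and 25.0% in the E18.5 libraries. It kept pace with the markers, in that the stages overlapped. Slc4a2 was at 27.4%, 27.6% and 51.9% and then at 19.2%, 20.2% and 19.5%. For Slc4a4 the mean was 33.4 ± 12.5% in the E16.5 libraries and 20.4 ± 2.31% in the E18.5 libraries (SD, n = 3). Relative to the cholangiocyte markers, both were thus lower in every E18.5 library than in any E16.5 library, although their TPM was higher. Slc26a1 was at 1.60%, 1.62% and 1.67% of the geometric mean of the hepatoblast markers in the E16.5 libraries and at 2.25%, 3.43% and 1.73% in the E18.5 libraries. Its 3 E16.5 values lay close together, and its TPM fell less than the hepatoblast markers did. Set against the other list, the directions turned. Slc26a1 was at 44.1%, 43.0% and 147% of the cholangiocyte markers and then at 10.9%, 8.08% and 13.1%. Against the hepatoblast markers, Slc4a2 went from 0.874% to 5.02%, Slc4a3 from 0.748% to 7.49% and Slc4a4 from 0.828% to 4.98% (means, n = 3), with no overlap between the stages.

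The closest patterns over the 6 libraries were sought by Pearson's r among the 11382 or 11383 other protein-coding genes with means of 5 TPM or more. For Slc4a2 they were Zfp36l2 (r = 0.9998), Phldb2 and Myl12b, and for Slc4a3 they were Krba1 (r = 0.9997), Cdh1 and Card10. For Slc4a4 they were Ccdc162 (r = 0.9991), Esrra and Agpat4. For Slc4a7 they were Tpcn2 (r = 0.9993), Cystm1 and Slc25a36, and for Slc26a2 they were Fnbp4 (r = 0.9997), Ddx6 and Pcnt. For Slc26a11 they were Otud4 (r = 0.9984), Zfp46 and Zcchc9. For Slc26a1, the member that fell, they were Suclg1 (r = 0.9980), Rcl1 and Hlf, and for Slc26a6 they were Dhrs7 (r = 0.9927), Fads1 and Mydgf. For Slc4a11 they were Mtif2 (r = 0.9961), Gdf11 and Zfp869. With 6 libraries in 2 stages, and the best of many genes taken, such values describe these libraries only.

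Of 11 other genes of the families, 5 reached a mean of 1 TPM and 0 were called by limma on the TPM, with 1 of them at an unadjusted p under 0.05 (Slc4a8). Limma voom on the recovered reads called 1. Slc4a8, a sodium-driven chloride-bicarbonate exchanger, was at 1.48, 1.03 and 0.241 TPM in the E16.5 libraries and at 2.28, 2.99 and 3.20 TPM in the E18.5 libraries (log2 fold change 1.04, SE 0.34, limma adjusted p = 0.0539). Slc4a1 encodes band 3, the anion exchanger of red blood cells. It was at 12.1, 16.1 and 10.1 TPM in the E16.5 libraries and at 6.31, 40.2 and 7.80 TPM in the E18.5 libraries, so that replicate B of E18.5 held the highest value and replicates A and C of that stage the 2 lowest. The summed level of 10 erythroid markers had the same outlying library, with 225 to 307 TPM in the E16.5 libraries and 116, 590 and 152 TPM in the E18.5 libraries. Slc4a1 followed the same order of the 6 libraries as Hbb-bs and Hba-a1, which are 2 of these 10 markers.

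Slc26a9, an epithelial chloride transporter, was at 5.62 TPM in replicate A of E16.5 and at 0.384 to 2.12 TPM in the other libraries. The summed pancreatic acinar markers were highest in that library too (3852 TPM, against 23.7 to 458 TPM in the others), and their part in the Slc26a9 level was not tested. Slc4a9 was at 8.68 to 15.7 TPM in the E16.5 libraries and at 5.88 to 21.5 TPM in the E18.5 libraries (log2 fold change 0.22, limma adjusted p = 0.732). Slc26a10, which shares 17.8% of its exon sequence with B4galnt1 on the opposite strand, changed by 0.64 (limma adjusted p = 0.144). Slc4a5, Slc4a10, Slc26a4, Slc26a5, Slc26a7 and Slc26a8 stayed below 1 TPM in every library.

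A list of 26 genes that work with these transporters in bicarbonate secretion was set beside the members. Of these, 23 were tested, 12 were called higher and 1 lower at E18.5, against 26.0% and 5.22% of all genes tested, with a median log2 fold change of 0.72 against 0.42. With median-of-ratios scaling 6 were higher and 3 lower, against 1447 and 2348 of all 22452 genes tested. With quantile normalization 9 were higher and 3 lower, against 1916 and 1880 of all. Of the chloride channels, which recycle chloride for the exchangers, 2 of 3 were higher. The other was Cftr, the apical chloride channel of duct cells, with 4.82 ± 4.28 and 4.66 ± 0.704 TPM (SD, n = 3; log2 fold change 0.33, 95% interval -1.19 to 1.85, limma adjusted p = 0.705). Of the regulators, 4 of 6 were higher, among them the kinase genes Wnk1, Wnk4 and Stk39. Sctr, the receptor for secretin, which stimulates ductal bicarbonate secretion, rose from 5.59 to 46.3 TPM (log2 fold change 2.96, limma adjusted p = 0.00822). Ano1, a calcium-activated chloride channel, rose from 11.9 to 41.0 TPM (log2 fold change 1.83, limma adjusted p = 0.0157).

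Atp1b1, a subunit of the sodium pump that maintains the sodium gradient used by Slc4a4 and Slc4a7, rose from 188 to 428 TPM (log2 fold change 1.22, limma adjusted p = 0.0167). Ezr, which links apical membrane proteins to actin, rose from 54.8 to 125 TPM (1.22, limma adjusted p = 0.0152). Of the carbonic anhydrases, which make bicarbonate, Car2 rose from 36.2 to 62.4 TPM and Car14 fell from 22.5 to 13.6 TPM (log2 fold changes 0.77 and -0.69). Without replicate A of E18.5 the number called in this list was 3, against 13 with every library. That fit called 1472 of all 22410 genes tested.

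Sulfate brought in by the Slc26 members is activated in the cytosol and nucleus, and the activated donor is carried into the Golgi for use. Of 7 genes listed for that route and for related steps, 5 were called higher at E18.5, against 26.0% of all genes tested. The median log2 fold change of the list was 0.58 against 0.42. The called genes were Papss1, which makes the activated sulfate donor (0.86), its Golgi carriers Slc35b2 (0.49) and Slc35b3 (0.82), and the phosphatase gene Impad1 (0.78). The last was the sulfatase-modifying gene Sumf1 (0.58), which is not a step of that route. Papss2 had a log2 fold change of -0.68 (limma adjusted p = 0.216) and Bpnt1 one of 0.18 (limma adjusted p = 0.433). With median-of-ratios scaling, limma called 0 of the 7, and with replicate A of E18.5 left out it also called 0. Over all genes, those fits called 3795 of 22452 and 1472 of 22410.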

How the data were processed

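Gene levels were measured by RNA sequencing of SOX9-GFP+ cells in 6 libraries, grouped by the stage and replicate letter of the labels. The authors checked and trimmed the reads (FastQC 0.11.7, Trimmomatic), aligned them to GRCm38 (HISAT2 2.1.0), counted them per gene (HTSeq 0.5.4p3, GENCODE vM15) and turned these counts into TPM, the unit deposited. Every column was used. TPM corrects for gene length and library sum, so a change in very abundant transcripts shifts the TPM of all others.

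Identifiers were matched to GENCODE vM21, which held 52403 of the 52550 rows. TPM multiplied by exon length and divided by the worth of 1 read was whole within 0.01 for 100% of 180057 values. These recovered reads gave depths, 95% exact (Clopper-Pearson) intervals and the limit of 3 reads, which cover counting error only. For the members 3 reads were worth 0.0230 to 0.205 TPM. No library was a copy of another, since read tables within a stage differed with a chi-square per degree of freedom of at least 15.1.

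Limma 3.58.1 (R 4.3.3, eBayes with trend) compared the stages on log2(TPM + 1), filtered at a mean of 1 TPM, and shares were compared by exact permutation in SciPy 1.17.1. The alternatives were a pseudocount of 0.1, no filter, a mean of 5 TPM, median-of-ratios scaling, quantile normalization, eBayes without trend or robust, the replicate letter as a block, limma voom on recovered reads, and each library left out. Sequences came from the RefSeq promoter table on GRCm38.p6.

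The members and gene lists were chosen with earlier results of these data known. The text names every member and every other Slc4 and Slc26 gene, called partner and sulfate genes whose log2 fold change was 1 or more in size or on which a count turns, genes that share exons with a named gene, and the 3 genes most like each tested member. Some partner and sulfate genes with smaller changes were named after their values were seen. Values of some partner genes are not given here.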

Additional observations from a re-analysis of the deposited data

How the results depend on the processing

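None of the 9 tested members changed sign in the alternatives in which it was tested (15 each, and 14 for Slc4a11 and Slc26a6). Slc4a4 stayed past the threshold in all 15, Slc4a2, Slc4a3 and Slc26a1 in 14 each (the exception was leaving out replicate A of E18.5), Slc26a2 in 13, Slc26a11 in 9 and Slc4a7 in 3. Slc26a6 was past it in 2 of 14 and Slc4a11 in 0 of 14 (limma).

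Without a filter on low values, 4282 genes in all and 3 sulfate genes were past the threshold. Median-of-ratios scaling gave 3795 and 0, quantile normalization 3796 and 3, and limma voom 3 sulfate genes. Limma voom and eBayes without trend each called 1 of the other Slc4 and Slc26 genes. With 1 library left out, 1 to 6 members, 3 to 14 bicarbonate partners, 0 to 4 sulfate genes and 1472 to 5686 of all genes were past it, each lowest without replicate A of E18.5, in fits with fewer samples. Without replicate A or C of E16.5 or replicate B of E18.5, the count of all genes was 4376, 4082 and 2917.

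The sign of 3 genes outside the members, none of them called, turned. Slc4a1 had -0.40 with median-of-ratios scaling, -0.37 with quantile normalization, -0.16 with voom and -0.76 to 0.49 without a library. Slc4a9 had -0.21 and -0.17 with the 2 scalings and -0.09 to 0.76 without a library. Slc26a9 had 0.22 with a pseudocount of 0.1, 0.06 with voom and -0.50 to 0.63 without a library. The cause was not tested.

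Apart from the replicate letter, no label pairs the libraries of the stages. The deviations of same-lettered libraries from their stage means correlated at -0.04, 0.08 and 0.14 over all genes. Whether libraries of a letter share a day or litter was not tested. With the letter as a block, the SE went from 0.19 to 0.11 for Slc4a2 and from 0.33 to 0.17 for Slc4a3. For Slc26a6 it went from 0.23 to 0.24. With the letter as a replicate block, 6 members (all but Slc4a7 of the 7) and 7314 genes were past the threshold, with 16 partners.

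Depth limits Slc26a3 and Slc4a11, with at most 26 and 54 reads per library.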
